A study of Mus musculus with 22 samples.

Results

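The genes described here are 36 genes of protein folding, secretion and stress signalling in the endoplasmic reticulum (ER), followed across the livers of pregnant and non-pregnant mice with and without a gut microbiota. They were taken from the deposited table by symbol, through the gene names of GENCODE M21. All 36 were found among the 53392 rows, under 37 identifiers. The second identifier of Ddit3 held 1.98 estimated counts in 1 library and was not used. All 36 passed the filter on low counts, as did 15928 genes in all.

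Each of 22 female C57BL/6 mice gave 1 liver and 1 library of total RNA. The groups were 5 germ-free pregnant, 6 germ-free non-pregnant, 5 conventional pregnant and 6 conventional non-pregnant mice. Germ-free mice are raised without microorganisms, and conventional mice carry an ordinary microbiota. All 4 groups received the same autoclaved chow, water and bedding. The pregnant mice were taken at gestation day 15, a day that was assumed for the germ-free dams because their matings ran for 72 h, whereas conventional matings lasted 1 night. Germ-free mice carried age labels of 91 to 121 and conventional mice of 70 to 77, in a unit the labels leave out, so that age cannot be told apart from microbiota status. The series' title names the microbiota and hepatic drug-processing genes during pregnancy as its question, and the ER genes below were measured in the same libraries.

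Secreted and membrane proteins enter the ER through the Sec61 channel, lose their signal peptide to the signal peptidase, and fold with the help of chaperones, lectins and disulfide isomerases. Misfolded proteins are carried back to the cytosol and destroyed by ER-associated degradation. When unfolded proteins build up, the sensors IRE1, PERK and ATF6 start the unfolded protein response: IRE1 splices the Xbp1 message, PERK favours translation of ATF4 and its target CHOP (the product of Ddit3), and ATF6 is cut to release a transcription factor. Hepatocytes secrete albumin and most other plasma proteins and hold an extensive ER.

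The promoters of several of these genes are known to carry the ER stress response element, to which ATF6 and XBP1 bind together with NF-Y. Promoter windows of 250 bases before to 50 bases after the start, from RefSeq on GRCm38.p6, were found for 29 of the 36 members and searched on both strands. Kdelr2, Manf, Sec61a1, Ssr2, Sec11c, Hyou1 and Atf6 had none in that table. The element, written as CCAAT followed after any 9 bases by CCACG, stood in the windows of 8 members. Of all 32851 windows, 39 (0.119%) held it. The shorter second form, ATTGG followed after any 1 base by CCACG, stood in the windows of Dnajb11 and Herpud1 and in 12 of all windows (0.0365%). None of the matches overlapped another. The match of Dnajb11 lay within the 50 bases after the start, whereas the other matches printed here lay before it. Dnajb11 is also printed with fewer flanking bases than the others. A match is a description of letters and not a measured site. The elements are printed here because the genes that carry them include the most abundant chaperones below, with the fixed letters in capitals and each line read 5′ to 3′ on the strand that holds the motif.
Hspa5 (chr2:34772010-34772058, plus strand): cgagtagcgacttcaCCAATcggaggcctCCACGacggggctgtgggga
Calr (chr8:84847060-84847108, plus strand): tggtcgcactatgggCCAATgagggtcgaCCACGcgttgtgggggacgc
Hsp90b1, farther copy (chr10:86705623-86705671, minus strand): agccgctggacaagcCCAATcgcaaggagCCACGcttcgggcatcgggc
Hsp90b1, nearer copy (chr10:86705518-86705566, plus strand): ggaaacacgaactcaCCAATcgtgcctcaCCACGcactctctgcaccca
Canx (chr11:50325785-50325833, minus strand): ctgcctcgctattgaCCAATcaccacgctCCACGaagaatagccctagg
Pdia6 (chr12:17266476-17266524, plus strand): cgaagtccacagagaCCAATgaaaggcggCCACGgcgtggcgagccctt
Dnajc3 (chr14:118937812-118937860, plus strand): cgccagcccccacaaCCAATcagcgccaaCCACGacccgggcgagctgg
Creld2 (chr15:88819505-88819553, minus strand): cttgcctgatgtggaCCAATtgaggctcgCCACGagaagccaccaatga
Syvn1 (chr19:6046517-6046565, plus strand): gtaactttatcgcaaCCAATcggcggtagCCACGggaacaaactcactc
Dnajb11, second form (chr16:22857843-22857871, plus strand): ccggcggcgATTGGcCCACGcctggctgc
Herpud1, second form (chr8:94386362-94386402, plus strand): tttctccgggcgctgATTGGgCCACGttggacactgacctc

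The 250 bases before the RefSeq start of Hspa5, the central chaperone of the ER, show the element in its promoter, 46 bases upstream of that start (chr2:34771840-34772089, plus strand). The GENCODE model of the gene begins farther upstream than the RefSeq start, inside the printed stretch.
Hspa5 promoter: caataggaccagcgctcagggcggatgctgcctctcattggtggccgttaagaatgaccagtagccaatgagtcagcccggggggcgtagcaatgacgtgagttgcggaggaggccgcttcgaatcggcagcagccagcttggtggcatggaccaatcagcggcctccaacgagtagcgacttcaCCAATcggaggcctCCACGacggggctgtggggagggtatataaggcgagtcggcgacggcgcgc

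Library totals lay between 18064500 and 30036900 estimated counts. The share of counts from mitochondrially encoded genes was 8.36% to 24.3% in germ-free pregnant, 8.11% to 32.0% in germ-free non-pregnant, 5.90% to 15.7% in conventional pregnant and 8.44% to 23.6% in conventional non-pregnant livers. Albumin (Alb) was the most abundant of 10 hepatocyte markers, with mean levels of 116446, 53110, 123804 and 52158 CPM (counts scaled to each library's effective size) in those groups. The 10 did not move as 1: with pregnancy 6 rose and 1 fell in germ-free mice, and 2 rose and 1 fell in conventional mice. Conventional pregnant replicate 2 stood apart by its acute phase genes: 7 of them summed to 20106 CPM there, against at most 8427 CPM in the other 21 libraries. Their sum was also 7587 to 8427 CPM in germ-free pregnant livers, against 4049 to 5168 CPM in germ-free non-pregnant livers. With pregnancy 1 of the 7 (Fgg, a fibrinogen chain) was called higher in germ-free mice, and 6 of the 7 in conventional mice. Apart from replicate 2, however, the conventional pregnant livers had sums of 3894 to 6308 CPM. These overlapped the 3552 to 5354 CPM of the conventional non-pregnant livers. The part of the acute phase response in the changes below was not tested. Plasma cells and pancreatic acini also carry much ER. Of 10 plasma and B cell markers, 9 were tested and only Sdc1, which hepatocytes also express, was called, and the other markers of that list summed to 8.00 to 21.3 CPM in germ-free pregnant, 9.55 to 36.8 CPM in germ-free non-pregnant, 10.0 to 24.7 CPM in conventional pregnant and 10.7 to 22.5 CPM in conventional non-pregnant livers. Of 10 exocrine pancreas markers, 2 were tested and none was called. Prss1 was the only 1 of the 10 at 0 in all 22 libraries, and Cela1 was the most abundant, averaging 12.8 CPM. The list summed to 5.56 to 29.8 CPM in germ-free pregnant and 10.6 to 17.9 CPM in germ-free non-pregnant livers. Its sum was 7.09 to 16.1 CPM in conventional pregnant and 13.3 to 26.5 CPM in conventional non-pregnant livers. Of 8 erythroid markers, 7 rose with pregnancy in germ-free and 2 in conventional mice, and their sum was 1762 to 3575 CPM in germ-free pregnant, 242 to 1771 CPM in germ-free non-pregnant, 372 to 2254 CPM in conventional pregnant and 451 to 865 CPM in conventional non-pregnant livers, with none of the 8 at 0 throughout. The part of erythroid cells in the changes below was not tested.

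In pregnancy most of the ER genes stood higher, with or without a microbiota. In germ-free mice 22 of the 36 members rose in pregnant livers and 1, Ddit3, fell. In conventional mice 18 rose and 1, Trib3, fell. Calls rest on edgeR's quasi-likelihood test over all 22 libraries, at a threshold of 0.05 on p-values adjusted by the Benjamini-Hochberg method over the 15928 genes. Of all genes, 7.15% were called higher and 3.6% lower with pregnancy in germ-free mice, and 5.49% higher and 3.52% lower in conventional mice. The median log2 change of the members was 0.78 in germ-free and 0.59 in conventional mice, beside medians over all genes of -0.02 and 0.04. With the mitochondrial percentage of each library as a covariate, 21 members and 1110 of all genes rose in germ-free mice, and 14 members and 496 of all genes in conventional mice. In these bulk samples, fewer cells of a type and less RNA per cell cannot be told apart.

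The 18 genes called higher in conventional mice were all among the 22 called higher in germ-free mice. Over all genes, 577 were called higher in both, which was 50.7% of those higher in germ-free and 65.9% of those higher in conventional mice. Canx, Xbp1, Hyou1 and Ssr4 were called higher in germ-free mice and missed the threshold in conventional mice, though the difference between the changes was not significant for any of them. A group of 12 members was called with pregnancy in neither: Dnajb9, Atf4, Herpud1, Syvn1, Manf, Sec61b, Sec61g, Spcs1, Spcs2, Kdelr2, Kdelr3 and Retreg1. For 20 members all 5 germ-free pregnant livers exceeded all 6 germ-free non-pregnant livers, which 5.66% of all genes did. For 8 members the same held in conventional mice, where it held for 2.57% of all genes. For 7 members (Hsp90b1, Pdia6, Calr, Dnajc3, Creld2, Sec61a1 and Ssr1) all 10 pregnant livers exceeded all 12 non-pregnant livers, which 1.14% of all genes did.

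**Figure D1:**
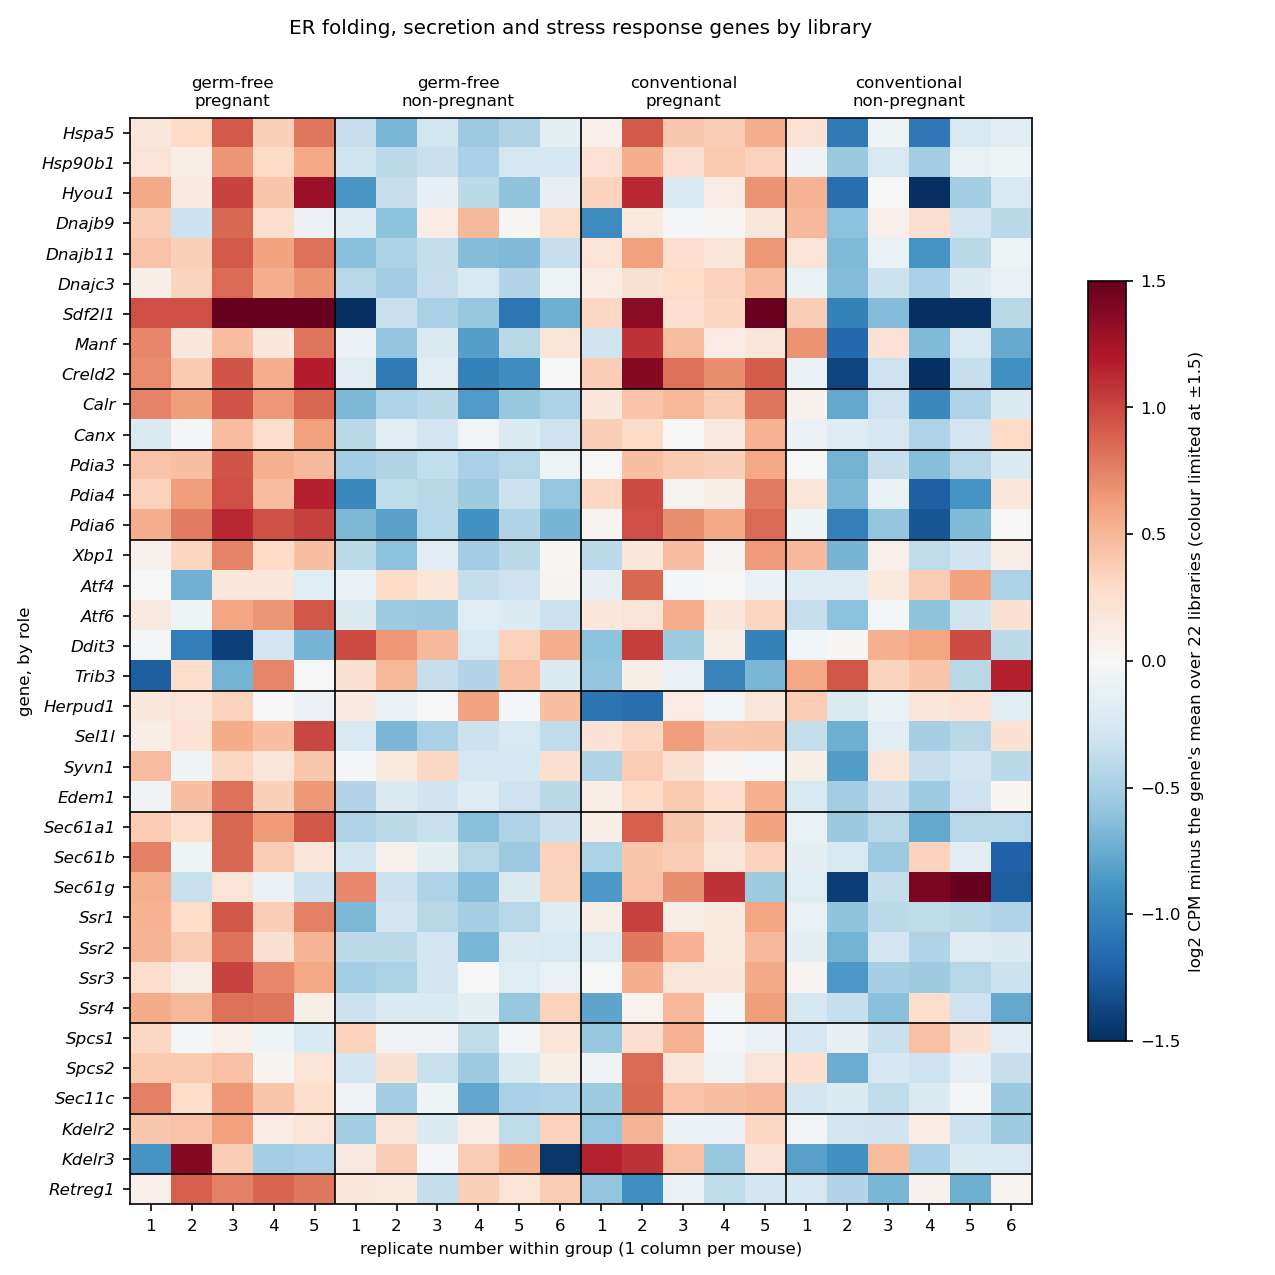
Each of the 36 genes (rows, grouped by role) in each of the 22 livers (columns), as log2 CPM minus that gene's mean over all libraries. Most chaperone, isomerase and translocon rows are red in both pregnant groups and blue in both non-pregnant groups, while Dnajb9, Sec61g, Atf4, Ddit3, Trib3, Herpud1, Spcs1 and Kdelr3 do not follow that pattern and Retreg1 is reddest in germ-free pregnant livers.

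Summed over the 36 members, the level was 8177 ± 1178 CPM in germ-free pregnant livers (SD, n = 5) and 4442 ± 309 CPM in germ-free non-pregnant livers (n = 6). It was 7132 ± 1067 CPM in conventional pregnant livers (n = 5) and 4576 ± 822 CPM in conventional non-pregnant livers (n = 6). The high and the low values gathered in a few libraries. Germ-free pregnant replicate 3 held the highest value of any library for 15 members, conventional pregnant replicate 2 for 8 and germ-free pregnant replicate 5 for 6, while conventional non-pregnant replicates 2 and 4 held the lowest value for 12 and 11. Without conventional pregnant replicate 2, whose mitochondrial share of 5.90% was the lowest, 14 members were called higher in conventional mice, as were 669 of all genes. Hspa5, Pdia4, Atf6 and Sec11c lost their calls there, and Trib3 was still called lower.

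The lumenal chaperones hold and release unfolded chains. Of the 9 chaperones and co-chaperones among the members, 7 rose with pregnancy in germ-free and 6 in conventional mice, with median log2 changes of 0.93 and 0.67. Hspa5 (chr2:34771970-34777547) encodes BiP, the ER chaperone that also holds the stress sensors inactive. It stood at 562, 609, 943, 636 and 864 CPM in the germ-free pregnant livers, against 308 CPM at the lowest, 378 CPM at the median and 451 CPM at the highest in the germ-free non-pregnant livers. It stood at 524, 945, 659, 642 and 726 CPM in the conventional pregnant livers, against 236 CPM at the lowest, 433 CPM at the median and 577 CPM at the highest in the conventional non-pregnant livers. The germ-free groups did not overlap, whereas in conventional mice the highest non-pregnant liver exceeded the lowest pregnant one. The log2 change (± its standard error) was 0.93 ± 0.22 in germ-free mice, with an edgeR adjusted p of 0.00543, and 0.81 ± 0.22 in conventional mice, with an edgeR adjusted p of 0.0184. Without conventional pregnant replicate 2 the conventional change had an edgeR adjusted p of 0.0656, with the mitochondrial covariate 0.0933 and with only the 2 groups fitted 0.0812.

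Creld2 (chr15:88819646-88826683), a disulfide isomerase-like protein known as an ER stress response gene, had 46.4, 37.1, 54.6, 41.2 and 64.2 CPM in the germ-free pregnant livers, against 13.5 CPM at the lowest, 20.0 CPM at the median and 28.4 CPM at the highest in the germ-free non-pregnant livers. It had 36.4, 73.4, 50.4, 46.0 and 52.9 CPM in the conventional pregnant livers, against 9.27 CPM at the lowest, 18.6 CPM at the median and 26.6 CPM at the highest in the conventional non-pregnant livers. Every pregnant liver exceeded every non-pregnant one. It rose by 1.27 ± 0.26 on the log2 scale in germ-free mice (edgeR adjusted p = 0.00198) and 1.54 ± 0.26 in conventional mice (edgeR adjusted p = 0.000428). Dnajb11 (chr16:22857845-22879634), a J-domain co-chaperone that brings substrates to BiP, had 100.1, 95.6, 141, 113 and 132 CPM in the germ-free pregnant livers, against 47.2 CPM at the lowest, 50.9 CPM at the median and 58.8 CPM at the highest in the germ-free non-pregnant livers. It had 86.2, 115, 88.0, 85.1 and 118 CPM in the conventional pregnant livers, against 40.4 CPM at the lowest, 63.0 CPM at the median and 85.3 CPM at the highest in the conventional non-pregnant livers. The germ-free groups were separate and the conventional groups touched, since the highest non-pregnant liver stood just above the lowest pregnant one. Its log2 change was 1.16 ± 0.17 in germ-free mice (edgeR adjusted p = 4.35e-05) and 0.67 ± 0.17 in conventional mice (edgeR adjusted p = 0.0113, or 0.065 with only the 2 groups fitted).

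The chaperone with the largest fold was Sdf2l1, which binds BiP's J-domain partners. It averaged 102 ± 34.5 CPM in germ-free pregnant and 21.7 ± 6.42 CPM in germ-free non-pregnant livers, and 65.7 ± 29.1 CPM in conventional pregnant and 22.2 ± 14.4 CPM in conventional non-pregnant livers, for log2 changes of 2.24 ± 0.37 and 1.57 ± 0.37. Hsp90b1, which encodes the abundant chaperone GRP94, rose by 0.72 ± 0.14 in germ-free and 0.60 ± 0.14 in conventional mice on the log2 scale, though the conventional call was lost with no filter on low counts (edgeR adjusted p = 0.0623). Its exons share 415 bases with the opposite-strand pseudogene 1810014B01Rik, and the library kit did not keep strand. Dnajc3, a co-chaperone that restrains PERK, rose by 0.85 ± 0.14 and 0.59 ± 0.14. Hyou1, the nucleotide exchange factor of BiP, rose in germ-free mice (1.13 ± 0.30), a call lost without germ-free pregnant replicate 5, and had a log2 change of 0.81 ± 0.30 in conventional mice that missed the threshold (edgeR adjusted p = 0.0925). Manf, a secreted protein that binds BiP, missed it in both, with log2 changes of 0.78 ± 0.28 and 0.57 ± 0.28 and edgeR adjusted p-values of 0.0759 and 0.228. Manf was called higher in germ-free mice by DESeq2 (adjusted p = 0.0483) and by edgeR with only the 2 groups fitted (adjusted p = 0.0126). Dnajb9, the co-chaperone that keeps IRE1 inactive, had log2 changes of 0.22 ± 0.24 and -0.04 ± 0.24, neither called.

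**Figure D2:**
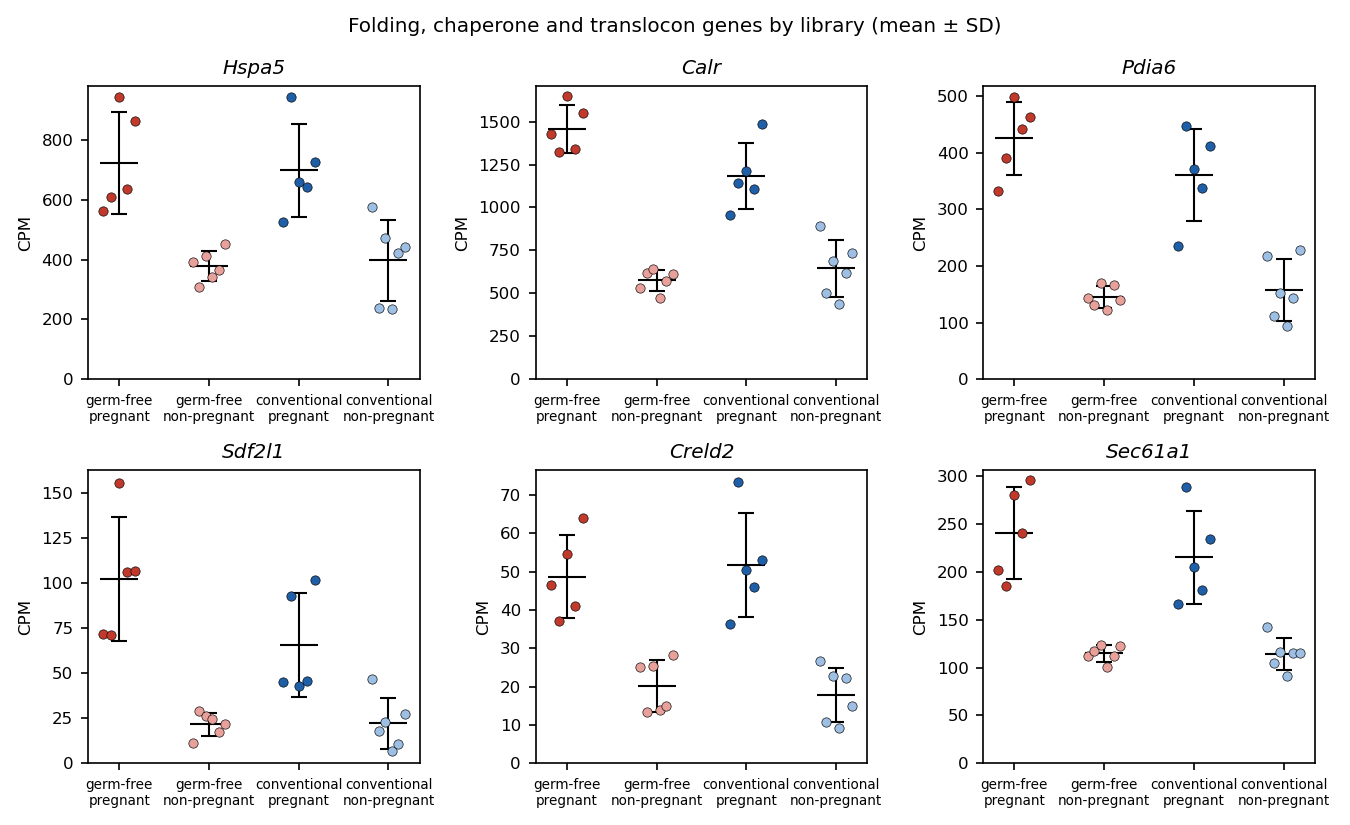
Level in CPM (linear axis from 0) of 6 folding and translocon genes, with 1 point per liver and the mean ± SD of each group. The germ-free pregnant points lie above the germ-free non-pregnant points in all 6 panels, and the conventional groups overlap for Hspa5 and Sdf2l1.

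The lectin chaperones calreticulin and calnexin hold glycoproteins while they fold. Calr (chr8:84841850-84846934) had 1428, 1322, 1647, 1339 and 1548 CPM in the germ-free pregnant livers, against 474 CPM at the lowest, 593 CPM at the median and 643 CPM at the highest in the germ-free non-pregnant livers. It had 958, 1145, 1209.6, 1110.4 and 1486 CPM in the conventional pregnant livers, against 437 CPM at the lowest, 654 CPM at the median and 891 CPM at the highest in the conventional non-pregnant livers. All 10 pregnant livers exceeded all 12 non-pregnant ones. Calr rose by 1.34 ± 0.17 on the log2 scale in germ-free mice (edgeR adjusted p = 6.54e-06), the lowest adjusted p of any member there, and 0.87 ± 0.17 in conventional mice (edgeR adjusted p = 0.00127). Per kilobase of exon Calr was also the most abundant member in every group, at 506 ± 48.3 CPM per kb in germ-free pregnant, 199.9 ± 21.9 in germ-free non-pregnant, 410.3 ± 67.1 in conventional pregnant and 224 ± 57.1 in conventional non-pregnant livers. Canx rose by 0.48 ± 0.15 on the log2 scale in germ-free mice, close to the threshold (edgeR adjusted p = 0.0446), and its conventional change of 0.42 ± 0.15 missed it (edgeR adjusted p = 0.0965). The germ-free call of Canx was lost in 8 of the 11 fits that left out 1 of the compared livers.

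All 3 disulfide isomerases among the members, which form and reshuffle disulfide bonds, rose in both comparisons. Pdia6 (chr12:17266545-17284770), which also quietens IRE1, had 333, 391, 498, 443 and 463 CPM in the germ-free pregnant livers, against 122 CPM at the lowest, 142 CPM at the median and 169.8 CPM at the highest in the germ-free non-pregnant livers. It had 236, 448, 371, 337 and 412 CPM in the conventional pregnant livers, against 93.6 CPM at the lowest, 148 CPM at the median and 229 CPM at the highest in the conventional non-pregnant livers. The pregnant livers were all above the non-pregnant ones, by a log2 change of 1.55 ± 0.21 in germ-free mice (edgeR adjusted p = 1.64e-05) and 1.19 ± 0.20 in conventional mice (edgeR adjusted p = 0.00045). Pdia3 (chr2:121413775-121438687), which works with the lectin chaperones, had 571, 578, 812, 612 and 595 CPM in the germ-free pregnant livers, against 296 CPM at the lowest, 312 CPM at the median and 402 CPM at the highest in the germ-free non-pregnant livers. It had 425, 578, 557, 543 and 631 CPM in the conventional pregnant livers, against 259.7 CPM at the lowest, 326 CPM at the median and 426 CPM at the highest in the conventional non-pregnant livers. In germ-free mice 1 pregnant liver stood well above the other 4, and the others were still above every non-pregnant liver, while the conventional groups just touched. Pdia3 rose by 0.96 ± 0.15 on the log2 scale in germ-free mice (edgeR adjusted p = 9.37e-05) and 0.73 ± 0.15 in conventional mice (edgeR adjusted p = 0.00220). Pdia4 averaged 322 ± 78.5 CPM in germ-free pregnant and 134 ± 19.9 CPM in germ-free non-pregnant livers, and 270.2 ± 80.1 CPM in conventional pregnant and 153 ± 58.6 CPM in conventional non-pregnant livers. Its log2 changes were 1.26 ± 0.24 and 0.82 ± 0.24. The conventional call of Pdia4 (edgeR adjusted p = 0.0308) was lost in 5 of the 11 fits that left out 1 liver, conventional pregnant replicate 2 among them.

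The translocon is the channel through which new chains enter the ER, and the Ssr proteins form the translocon-associated complex beside it. Of these 7 members, 5 rose in germ-free and 4 in conventional mice. Sec61a1 (chr6:88503579-88518905), the pore-forming subunit, had 202, 185, 280.2, 240.3 and 296 CPM in the germ-free pregnant livers, against 100.3 CPM at the lowest, 115 CPM at the median and 123 CPM at the highest in the germ-free non-pregnant livers. It had 166, 289, 205, 181 and 235 CPM in the conventional pregnant livers, against 90.8 CPM at the lowest, 115 CPM at the median and 143 CPM at the highest in the conventional non-pregnant livers. No pregnant liver fell among the non-pregnant ones. Sec61a1 rose by 1.07 ± 0.15 on the log2 scale in germ-free mice (edgeR adjusted p = 3.60e-05) and 0.91 ± 0.15 in conventional mice (edgeR adjusted p = 0.00031), the lowest adjusted p of any member in conventional mice. An antisense gene, Gm44170, shares 549 exonic bases with Sec61a1, and reads there cannot be assigned to a strand.

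Ssr1 (chr13:37966605-37994217), a subunit of the translocon-associated complex, had 150.2, 127, 199, 134 and 176 CPM in the germ-free pregnant livers, against 65.2 CPM at the lowest, 77.7 CPM at the median and 91.0 CPM at the highest in the germ-free non-pregnant livers. It had 112, 213, 111, 115 and 157 CPM in the conventional pregnant livers, against 68.8 CPM at the lowest, 79.0 CPM at the median and 96.4 CPM at the highest in the conventional non-pregnant livers. The groups were again separate in both comparisons, with conventional pregnant replicate 2 far above the other livers of its group. Ssr1 rose by 1.00 ± 0.16 on the log2 scale in germ-free mice (edgeR adjusted p = 0.000179) and 0.83 ± 0.16 in conventional mice (edgeR adjusted p = 0.00173), and 0.63 in conventional mice without that replicate. Ssr2 and Ssr3, further subunits, rose by 0.86 ± 0.15 and 0.82 ± 0.17 in germ-free mice and by 0.71 ± 0.15 and 0.72 ± 0.17 in conventional mice. Of the 1864 exonic bases of Ssr2, 239 are shared with the opposite-strand pseudogene Gm10704, where reads cannot be assigned to a strand. Ssr4 rose in germ-free mice (0.73 ± 0.22) and had 0.46 ± 0.22 in conventional mice, where it was not called, and 6 of the 11 fits that left out 1 liver lost the germ-free call. The small channel subunits Sec61b and Sec61g were called in neither comparison. Sec61b had log2 changes of 0.60 ± 0.23 in germ-free and 0.45 ± 0.23 in conventional mice. Sec61g, of which conventional non-pregnant livers ranged from 4.90 to 39.5 CPM, had 0.05 ± 0.46 and -0.09 ± 0.45. Its deposited values were not whole in any of the 22 libraries, which marks reads shared with other transcripts. The same held for Hsp90b1, Hyou1 and Kdelr2 in all 22 libraries, for Ssr1 in 21 and for Sec61a1 in 20.

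Of the 3 signal peptidase subunits, Sec11c, a catalytic subunit, rose in both comparisons, by 0.86 ± 0.18 in germ-free and 0.67 ± 0.18 in conventional mice. It averaged 31.4 ± 4.92 CPM in germ-free pregnant and 17.3 ± 3.46 CPM in germ-free non-pregnant livers, and 29.6 ± 9.07 CPM in conventional pregnant and 18.5 ± 2.28 CPM in conventional non-pregnant livers. Its conventional call was lost without conventional pregnant replicate 2 (edgeR adjusted p = 0.0787). The call was also lost with the replicate number as a block (0.0604), with the mitochondrial covariate (0.103) and with only the 2 groups fitted (0.0722). The accessory subunits Spcs1 and Spcs2 were not called. Spcs2 had log2 changes of 0.45 ± 0.18 and 0.49 ± 0.18. Spcs1 had 0.01 ± 0.17 in germ-free mice (95% interval -0.35 to 0.36) and 0.07 ± 0.17 in conventional mice (-0.29 to 0.43). The KDEL receptors, which return escaped chaperones from the Golgi, were not called either. Kdelr2 had log2 changes of 0.41 ± 0.18 and 0.27 ± 0.18. Kdelr3 was below 1 CPM in every liver and the lowest of the members per kilobase of exon. It averaged 0.371 ± 0.334 CPM in germ-free pregnant and 0.336 ± 0.154 CPM in germ-free non-pregnant livers, and 0.503 ± 0.260 CPM in conventional pregnant and 0.233 ± 0.122 CPM in conventional non-pregnant livers, and its log2 changes of 0.11 ± 0.55 and 1.08 ± 0.55 have wide errors.

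Within ER-associated degradation, 2 of 4 members rose in both comparisons. Sel1l, the adaptor of the ubiquitin ligase HRD1, rose by 0.89 ± 0.16 in germ-free and 0.69 ± 0.16 in conventional mice on the log2 scale. Edem1, which helps to trim glycans from misfolded glycoproteins, rose by 0.78 ± 0.14 and 0.63 ± 0.14. Syvn1, which encodes HRD1 itself, had 0.23 ± 0.17 and 0.28 ± 0.17, and Herpud1, an organiser of the same complex, had -0.07 ± 0.22 and -0.35 ± 0.22. Neither was called. Herpud1 averaged 258 ± 30.4 CPM in germ-free pregnant and 272 ± 56.0 CPM in germ-free non-pregnant livers, and 194 ± 79.4 CPM in conventional pregnant and 247 ± 41.8 CPM in conventional non-pregnant livers. By level per kilobase of exon it held rank 7 among the members in both pregnant groups and rank 3 in both non-pregnant groups.

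The sensors and transcription factors did not move as 1 group. Xbp1 (chr11:5520659-5525893), the factor that IRE1 activates by splicing, had 203, 242, 326, 239 and 266 CPM in the germ-free pregnant livers, against 127 CPM at the lowest, 148 CPM at the median and 197 CPM at the highest in the germ-free non-pregnant livers. It had 148, 217, 269, 199.5 and 302 CPM in the conventional pregnant livers, against 120.0 CPM at the lowest, 181 CPM at the median and 273 CPM at the highest in the conventional non-pregnant livers. The germ-free groups were separate, and the conventional groups overlapped over most of their range. For Xbp1 the log2 change was 0.72 ± 0.20 in germ-free mice (edgeR adjusted p = 0.0186) and 0.29 ± 0.20 in conventional mice (edgeR adjusted p = 0.427). The germ-free call of Xbp1 was lost without germ-free pregnant replicate 3 or replicate 5. Gene-level counts do not separate spliced from unspliced Xbp1. Atf6, the membrane-bound factor that is cut in the Golgi, rose by 0.83 ± 0.17 in germ-free mice and by 0.53 ± 0.17 in conventional mice, where the edgeR adjusted p was 0.0477 and 9 of the 11 fits that left out 1 liver lost the call.

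Atf4 (chr15:80255184-80257541), the factor of the PERK branch, had 62.4, 38.0, 70.2, 70.4 and 55.2 CPM in the germ-free pregnant livers, against 48.9 CPM at the lowest, 61.2 CPM at the median and 76.9 CPM at the highest in the germ-free non-pregnant livers. It had 57.8, 114, 61.5, 62.9 and 58.6 CPM in the conventional pregnant livers, against 45.1 CPM at the lowest, 62.2 CPM at the median and 95.3 CPM at the highest in the conventional non-pregnant livers. The groups overlapped throughout, and the conventional pregnant livers lay close together apart from replicate 2. The log2 change was -0.06 ± 0.21 in germ-free mice (95% interval -0.49 to 0.38) and 0.09 ± 0.21 in conventional mice (-0.35 to 0.52), with edgeR adjusted p-values of 0.906 and 0.866. ATF4 is regulated largely through its translation, which these counts do not measure.

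Ddit3 (chr10:127290774-127296288), which encodes CHOP, the factor linked to cell death under ER stress, had 4.89, 2.37, 1.81, 4.01 and 3.02 CPM in the germ-free pregnant livers, against 4.16 CPM at the lowest, 7.10 CPM at the median and 9.85 CPM at the highest in the germ-free non-pregnant livers. It had 3.19, 10.2, 3.39, 5.26 and 2.40 CPM in the conventional pregnant livers, against 3.74 CPM at the lowest, 6.07 CPM at the median and 9.77 CPM at the highest in the conventional non-pregnant livers. In germ-free mice 4 of the 5 pregnant livers lay below every non-pregnant liver, and in conventional mice replicate 2 was the highest liver of both groups. For Ddit3 the log2 change was -1.13 ± 0.34 in germ-free mice (edgeR adjusted p = 0.0319) and -0.37 ± 0.33 in conventional mice (edgeR adjusted p = 0.580), or -0.82 in conventional mice without replicate 2. The germ-free call was lost in 6 of the 11 fits that left out 1 liver. Exons of Mars on the opposite strand share 68 bases with Ddit3, and the reads there cannot be assigned to a strand.

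Trib3 (chr2:152337422-152344032), a pseudokinase induced by ATF4 and CHOP, had 3.55, 10.2, 5.16, 14.1 and 8.48 CPM in the germ-free pregnant livers, against 6.21 CPM at the lowest, 8.63 CPM at the median and 12.0 CPM at the highest in the germ-free non-pregnant livers. It had 5.60, 8.97, 7.95, 4.18 and 5.23 CPM in the conventional pregnant livers, against 6.34 CPM at the lowest, 12.0 CPM at the median and 19.1 CPM at the highest in the conventional non-pregnant livers. The conventional groups overlapped at their edges, and in germ-free mice the non-pregnant livers lay within the range of the pregnant ones. For Trib3 the log2 change was -0.11 ± 0.31 in germ-free mice (edgeR adjusted p = 0.876) and -0.998 ± 0.31 in conventional mice (edgeR adjusted p = 0.0447). The conventional call was lost in 8 of the 11 fits that left out 1 liver.

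**Figure D3:**
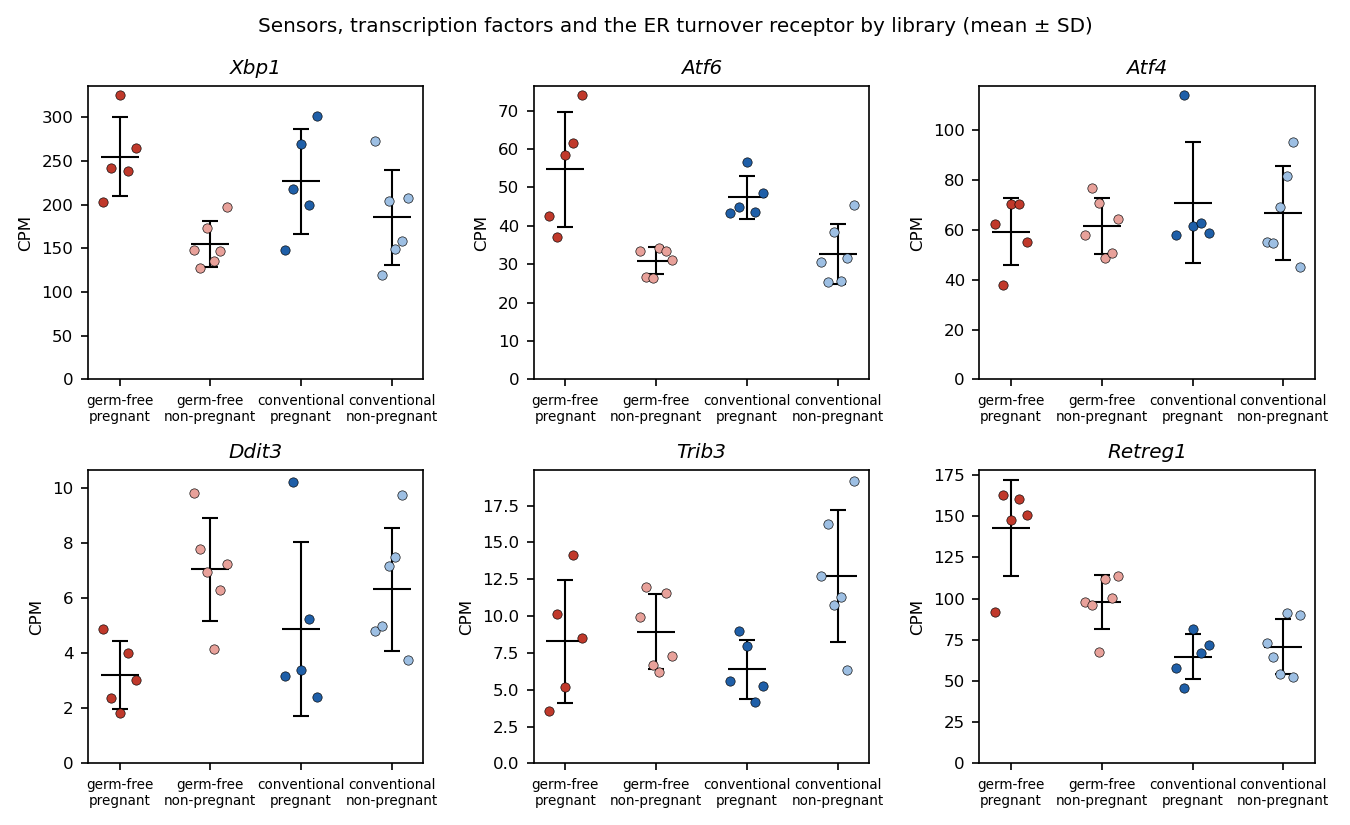
Level in CPM (linear axis from 0) of 5 sensors and transcription factors and of Retreg1, with 1 point per liver and the mean ± SD of each group. Xbp1 and Atf6 are higher in germ-free pregnant than in germ-free non-pregnant livers, the Atf4 groups overlap, with 1 conventional pregnant liver at 114 CPM above the rest, and the mean of Retreg1 is highest in germ-free pregnant livers.

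Few genes were called between germ-free and conventional mice, and 1 member was among them. Between germ-free and conventional non-pregnant livers no member was called by edgeR or DESeq2 and 1 of 36 had an unadjusted p under 0.05, as 6.01% of all genes did. EdgeR called 0.0879% of all genes higher and 0.0691% lower there. Between germ-free and conventional pregnant livers Retreg1 rose, where 0.0816% of all genes were called higher and 0.0502% lower. Retreg1 (chr15:25843180-25973687) encodes a receptor that binds ER sheets to the autophagy machinery for their turnover. It had 92.1, 163, 148, 160.4 and 151 CPM in the germ-free pregnant livers, against 57.7, 45.9, 81.6, 66.9 and 71.6 CPM in the conventional pregnant livers. It had 67.8 CPM at the lowest, 99.2 CPM at the median and 114 CPM at the highest in the germ-free non-pregnant livers, against 52.4 CPM at the lowest, 68.7 CPM at the median and 91.0 CPM at the highest in the conventional non-pregnant livers. The pregnant groups did not overlap, which 0.496% of all genes did in that direction, although the lowest germ-free pregnant liver stood far below the other 4. The log2 change was 1.14 ± 0.19 between pregnant groups (edgeR adjusted p = 0.0172) and 0.47 ± 0.18 between non-pregnant groups (edgeR adjusted p = 0.548). The first call was lost without germ-free pregnant replicate 4 (edgeR adjusted p = 0.0598), with the mitochondrial percentage as a covariate (0.0537) and with the 2 groups fitted alone (0.0966).

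With pregnancy, Retreg1 had a log2 change of 0.54 ± 0.18 in germ-free mice (edgeR adjusted p = 0.0587, and 0.0392 by DESeq2) and -0.13 ± 0.18 in conventional mice (edgeR adjusted p = 0.756). The germ-free change also passed the threshold with the replicate number as a block (edgeR adjusted p = 0.0435) and with only the 2 groups fitted (0.0458). Retreg1 was the member whose change with pregnancy differed between microbiota states at the lowest unadjusted p. That difference was 0.67 ± 0.26, with an edgeR adjusted p of 0.863. It does not pass the threshold. The germ-free comparisons also compare ages, and in pregnant mice possibly gestational ages.

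The change with pregnancy was not shown to differ between germ-free and conventional mice for any member. The interaction, the germ-free change minus the conventional one, called no member by edgeR or DESeq2, and edgeR called 0% of all genes in either direction while 5.67% had an unadjusted p under 0.05 and DESeq2 called 2 genes higher and 5 lower. Of the members, 2 of 36 had an unadjusted p under 0.05, Dnajb11 at 0.49 ± 0.23 and Retreg1. The estimate was positive, that is larger in germ-free mice, for 29 of the 36 members, and for 7537 of the 15928 genes. For the 4 members called higher in germ-free mice alone it was 0.07 ± 0.22 for Canx, 0.43 ± 0.28 for Xbp1, 0.32 ± 0.42 for Hyou1 and 0.28 ± 0.31 for Ssr4, with edgeR adjusted p-values between 0.887 and 0.977. For Ddit3 it was -0.77 ± 0.47 and for Trib3 0.89 ± 0.43, with edgeR adjusted p-values of 0.887 and 0.863. The intervals were wide: that of Hspa5 ran from -0.51 to 0.75, and that of Calr from -0.02 to 0.95.

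**Figure D4:**
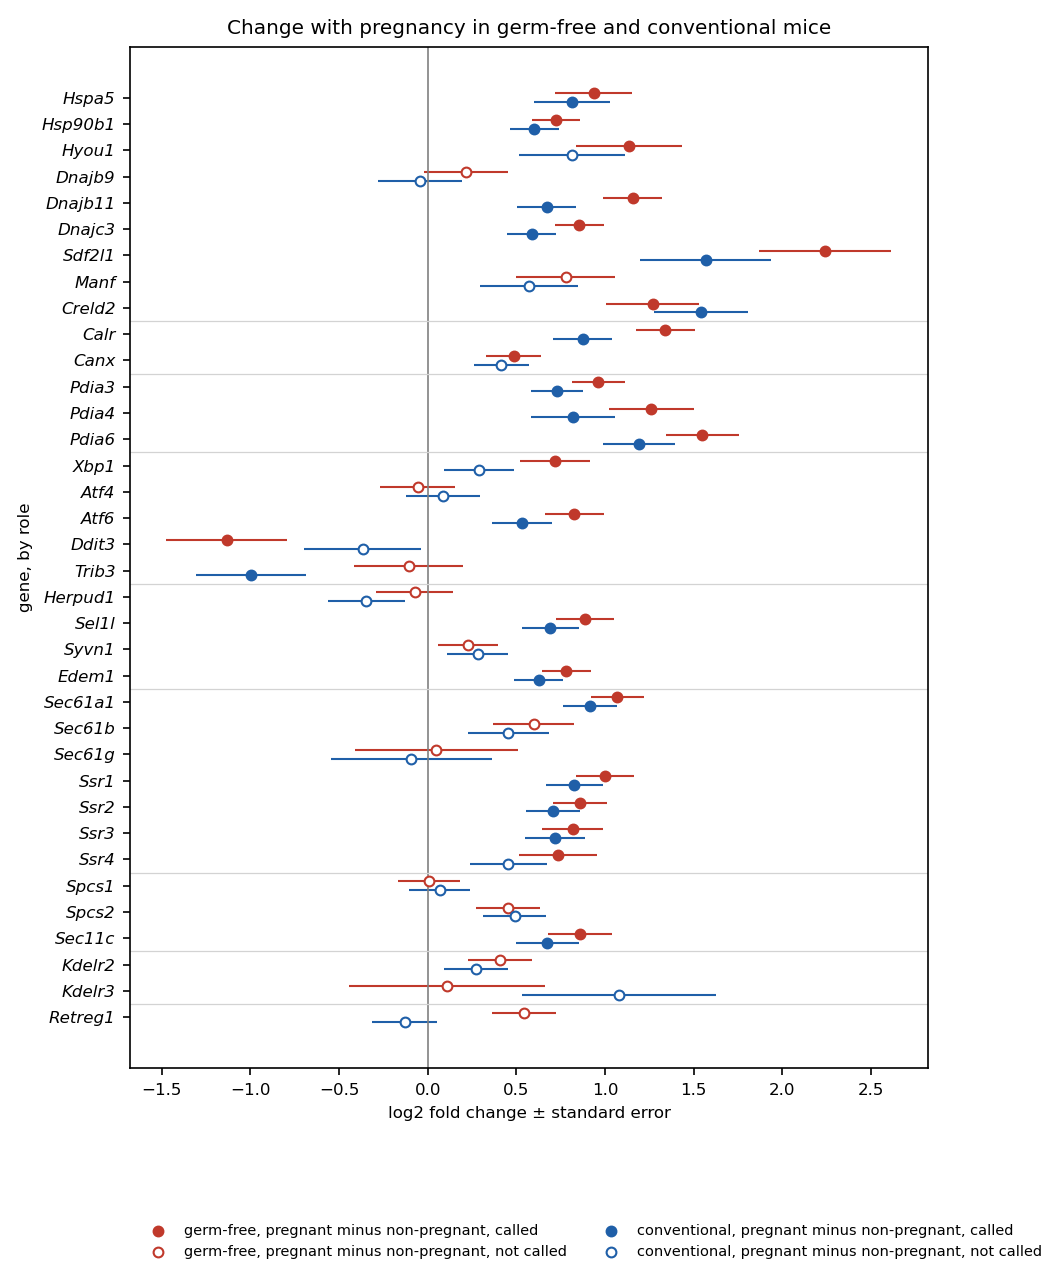
Log2 fold change with pregnancy (± standard error) of each member in germ-free (red) and conventional (blue) mice, filled where called at an adjusted p under 0.05. Most points lie to the right of 0 in both comparisons, Sdf2l1 reaches 2.24 in germ-free mice, and Ddit3 and Trib3 are the only members called lower.

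Other genes of the secretory pathway were grouped by role and tested in the same fit. Of 127 tested genes that are not members, 50 rose and 1 fell with pregnancy in germ-free mice, and 37 rose and 2 fell in conventional mice, with median log2 changes of 0.40 and 0.30. The shares over all genes, to be set beside each list below, were 7.15% higher and 3.6% lower in germ-free mice. In conventional mice they were 5.49% higher and 3.52% lower. Oligosaccharyltransferase, which attaches glycans to new chains, had 7 of 12 subunits higher in germ-free and 5 in conventional mice. Its subunit Ddost averaged 196 ± 20.7 CPM in germ-free pregnant and 84.6 ± 9.18 CPM in germ-free non-pregnant livers, and 144 ± 42.1 CPM in conventional pregnant and 85.9 ± 15.2 CPM in conventional non-pregnant livers. Ddost rose by 1.21 ± 0.17 and 0.74 ± 0.16 on the log2 scale, and the catalytic subunit Stt3b by 0.91 ± 0.12 and 0.61 ± 0.12.

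Of 19 further folding enzymes, 12 rose in germ-free and 8 in conventional mice. Txndc11, a thioredoxin-domain protein, rose by 1.12 ± 0.13 and 0.82 ± 0.13, and Uggt1, which senses the folding of glycoproteins, by 1.11 ± 0.16 and 0.67 ± 0.15. Of 24 genes of transport between ER and Golgi, 13 rose in germ-free and 9 in conventional mice. They include Sec13, of the COPII coat, at 1.09 ± 0.15 and 0.81 ± 0.15, and the cargo receptor subunit Mcfd2 at 0.80 ± 0.13 and 0.66 ± 0.13. Of 18 further genes of ER-associated degradation, 7 rose in germ-free mice, among them Edem2 at 1.02 ± 0.16 and the lectin Os9 at 0.80 ± 0.16. In conventional mice 3 rose and 1 fell. Edem2 rose there by 0.56 ± 0.16, and Ubxn4, which recruits the ATPase p97 to the ER, by 0.59 ± 0.11. Of 16 genes of signal recognition, translocation and signal peptide removal, 6 rose in germ-free and 4 in conventional mice, among them the translocating chain protein Tram1 at 0.66 ± 0.13 and 0.49 ± 0.13. The signal peptidase subunit Spcs3 rose by 0.83 ± 0.16 in germ-free mice.

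Of 12 sensors, ATF6-processing enzymes and feedback genes, 4 rose in germ-free and 2 in conventional mice. Creb3l2 is a membrane-bound factor related to ATF6 that is known to raise COPII genes. It averaged 48.7 ± 13.4 CPM in germ-free pregnant and 15.8 ± 2.07 CPM in germ-free non-pregnant livers, and 41.1 ± 11.0 CPM in conventional pregnant and 17.1 ± 3.17 CPM in conventional non-pregnant livers. Its log2 changes were 1.62 ± 0.19 (edgeR adjusted p = 3.23e-06) and 1.26 ± 0.19 (edgeR adjusted p = 9.93e-05). Mbtps1, a protease that cuts ATF6, rose in germ-free mice by 0.56 ± 0.12, and Atf6b, a relative of Atf6, rose in conventional mice by 0.47 ± 0.13. Of 8 other ER-phagy receptors, none rose, a count near the share over all genes. Tex264 fell in both comparisons, with log2 changes of -0.49 ± 0.11 and -0.69 ± 0.11.

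The targets of ATF4 and CHOP gave different counts in the 2 microbiota states. Of 19 tested, 1 rose in germ-free mice, Shmt2 at 0.54 ± 0.14, with a median over the list of -0.05. That count is near the 7.15% of all genes called higher there. In conventional mice 6 rose, with a median of 0.79. They were Ddit4, Mthfd2, Asns, Atf3, Psat1 and Fgf21. Without conventional pregnant replicate 2 only Ddit4, a brake on mTOR, was called, and the median was 0.27. As 669 of all genes were called higher without that replicate, 1 of 19 is near the share over all genes. Mthfd2, a mitochondrial folate enzyme, had a log2 change of 2.78 ± 0.59 with that replicate and 1.00 without it (edgeR adjusted p = 0.0573). No gene of the list was called in the interaction.

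Other counts of higher genes in conventional mice were also smaller without conventional pregnant replicate 2, as was the count over all genes (669 against 875). They were 2 against 9 of 24 genes for transport between ER and Golgi and 1 against 4 of 16 for the translocation list. For the further folding enzymes they were 5 against 8 of 19. They were 1 against 3 of 18 for the degradation list and 4 against 5 of 12 for oligosaccharyltransferase. As 669 of all genes were called higher without the replicate, 2 of 24, 1 of 16 and 1 of 18 are near the share over all genes. The 1 gene called lower in the degradation list was not called without the replicate. The medians of these lists, without against with the replicate, were 0.34 against 0.37, 0.21 against 0.26, 0.32 against 0.31, 0.23 against 0.20 and 0.27 against 0.41. Of the genes named above, Edem2, Tram1 and Atf6b missed the threshold there, with edgeR adjusted p-values of 0.0879, 0.0686 and 0.104.

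**Figure D5:**
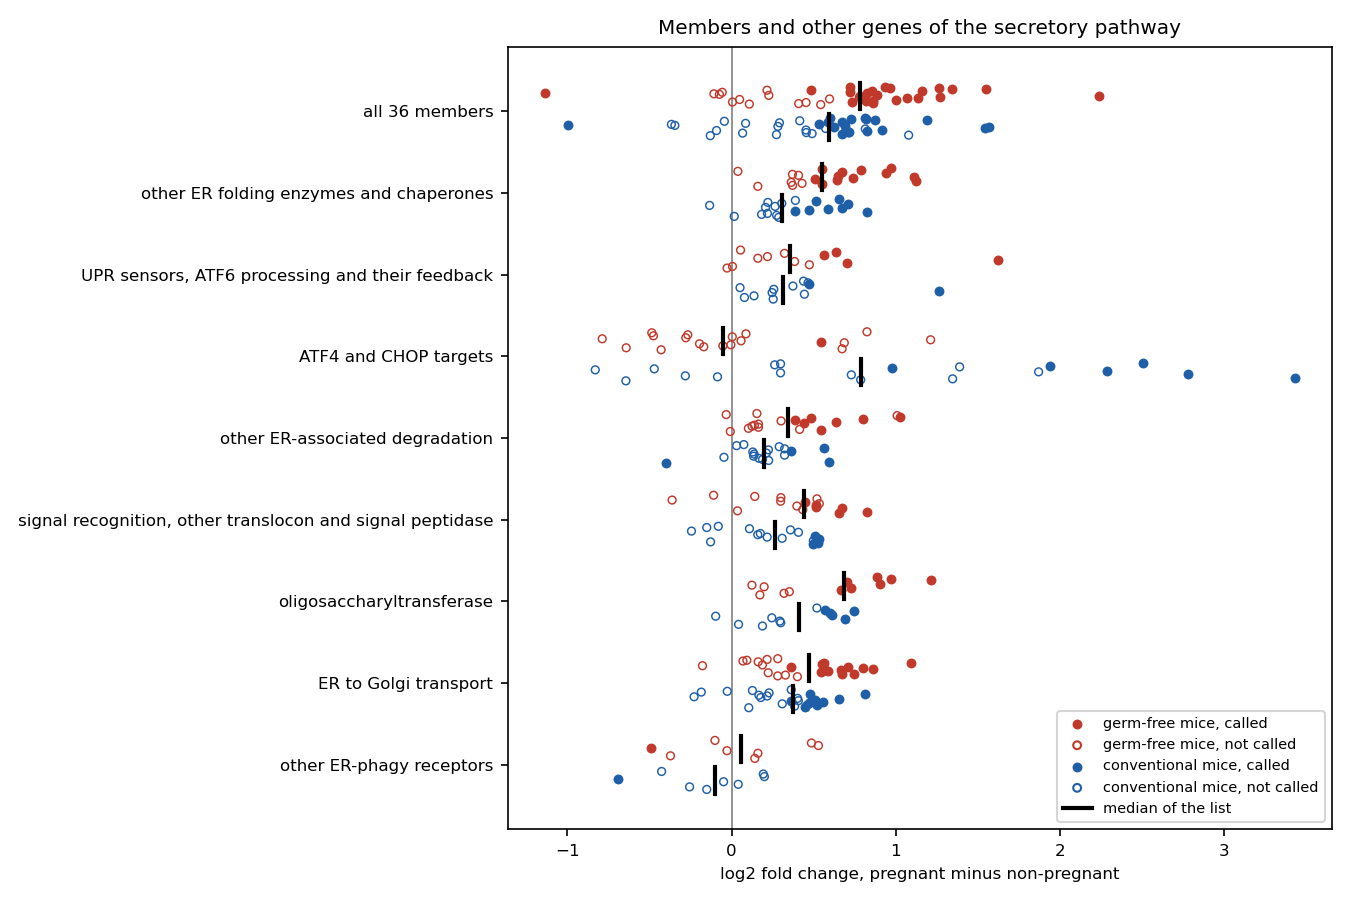
Log2 fold change with pregnancy of the 36 members and of each list of other secretory genes, with germ-free mice (red) above conventional mice (blue), filled where called, and the median of each list as a bar. The lists lie mostly to the right of 0, except the ER-phagy receptors and, in germ-free mice, the ATF4 and CHOP targets, whose median is -0.05.

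The promoter elements were set beside these changes. Of the 10 members with either form of the ER stress element, 8 rose in germ-free and 7 in conventional mice, with median log2 changes of 0.89 and 0.64. Herpud1 and Syvn1, which carry it, were called in neither comparison. Of the 19 members with a window and neither form, 9 rose and 1 fell in germ-free mice and 7 rose and 1 fell in conventional mice, with medians of 0.60 and 0.46. Of the 7 members with no window, 5 rose in germ-free and 4 in conventional mice, with medians of 0.86 and 0.67, close to those of the carriers. Outside the members, 12 tested genes carried the first form, and none of them was called with pregnancy in either microbiota state. That count is near the share over all genes, of which 7.15% were called higher in germ-free and 5.49% in conventional mice. Of 7 tested genes outside the members with the second form, 2 were called higher in germ-free mice and 1 lower in conventional mice. The 12 carriers of the first form had median log2 changes of 0.14 in germ-free and 0.30 in conventional mice. In germ-free mice they reached from -1.19 for Zfp57 to 1.01 for Derl3, a channel protein of ER-associated degradation. Derl3 had an edgeR adjusted p of 0.1998 there, and a log2 change of 0.29 in conventional mice (edgeR adjusted p = 0.796). The unfolded protein response element TGACGTGG stood in the window of Kdelr3 and in 0.676% of all windows. The amino acid response element TTGCATCA stood in that of Herpud1 and in 0.895% of all windows.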

How the data were processed

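Total RNA from 22 snap-frozen mouse livers, 1 per mouse, was made into NEBNext Ultra libraries, per the labels' protocols. The deposited table holds estimated counts per gene, which the authors made with Salmon 0.11.3 and edgeR 3.24.3 on GRCm38.p6, per the submitters' processing notes, whose role and order for each tool are not given in the sources used here. Each estimate was rounded to the nearest integer before the fits. In each library 14.7% to 26.3% of the values were not whole and so were altered. Summed as absolute amounts, these alterations came to 0.00829% of the total counts. GENCODE M21 named 97.721% of the identifiers by their exact version and 99.931% with or without it.

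All genes were fitted in 1 model with a term per group in edgeR 4.0.16 (limma 3.58.1, R 4.3.3), with the quasi-likelihood F test (two-sided), TMM scaling and the default expression filter (minimum count 10, minimum total 15). P-values were adjusted over 15928 genes by the Benjamini-Hochberg method and called under 0.05. Standard errors are the log2 change over the square root of F, intervals are at 95%, and heat map values use a prior count of 2. The script was tested on simulated data. Alternatives were median-ratio scaling, no filter, DESeq2 1.42.0, only the groups compared, the replicate number as a block, the mitochondrial percentage as a covariate and leaving out each library in turn. The lists without conventional pregnant replicate 2 were added after seeing the data.

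The members and lists were chosen with earlier results of these data known, so lists have counts and medians and no test. Members with a value per library are at most the 5 with the lowest adjusted p in each comparison and direction, and Hspa5, Xbp1, Atf4, Ddit3 and Retreg1 throughout. From the other lists, at most the 2 called genes with the lowest adjusted p in each comparison are named, and the 6 ATF4 and CHOP targets, Edem2 and Derl3 where the text turns on them, chosen after their values were seen. No 2 libraries of a group agreed within sampling noise over the 50 pairs compared.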

Additional observations from a re-analysis of the deposited data

Results flagged for a closer look

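Within each group, the highest and the lowest library of each member were set against the others on the log2 scale with Dixon's test at its 95% critical value. Of 144 groups of values, 9 passed it, where chance passes about 1 in 20. Conventional pregnant replicate 2 was the highest of its group for Atf4, at 114 CPM against 57.8 to 62.9 CPM in the others. It was also the highest for Spcs2, at 159.8 CPM against 85.4 to 101 CPM. Conventional pregnant replicate 1 was the lowest for Dnajb9, at 25.8 CPM against 49.6 to 56.5 CPM, and for Sec61b, at 65.5 CPM against 103 to 122 CPM. Germ-free pregnant replicate 3 was the highest for Pdia3, at 812 CPM against 571 to 612 CPM. Germ-free pregnant replicate 1 was the lowest for Retreg1, at 92.1 CPM against 148 to 163 CPM. Germ-free non-pregnant replicate 3 was also the lowest of its group for Retreg1, at 67.8 CPM against 96.2 to 114 CPM. Germ-free non-pregnant replicate 6 was the highest for Pdia3, at 402 CPM against 296 to 328 CPM, and the lowest for Kdelr3, at 0.0533 CPM against 0.296 to 0.488 CPM.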

How the results depend on the processing

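The 36 members were called higher with pregnancy in similar numbers under every alternative run: 20 to 24 in germ-free and 13 to 18 in conventional mice, and 19 to 23 and 14 to 19 when 1 library was left out. The causes of the differences were not tested.

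With no filter on low counts, 18 of all genes were called lower in germ-free than in conventional non-pregnant mice, 20 higher and 15 lower between the pregnant groups, and 1 higher and 1 lower in the interaction. With the mitochondrial percentage as a covariate, 496 were higher and 324 lower with pregnancy in conventional mice, 3 higher and 3 lower between the pregnant groups, and 0 members higher there. With only the 2 groups compared, 497 were higher with pregnancy in conventional mice, 18 lower in the non-pregnant germ-free comparison, 2 higher and 3 lower between the pregnant groups, and 0 members higher there. DESeq2 called 876 lower with pregnancy in germ-free and 896 in conventional mice, 55 higher and 62 lower between the non-pregnant groups, 64 higher and 44 lower between the pregnant groups, and 2 higher and 5 lower in the interaction.

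The replicate numbers are not said to pair the mice, and correlations cannot settle whether they do. The deviations of same-numbered libraries correlated at 0.0044 to 0.15 for pregnancy in germ-free mice, where 2 of 5 pairs matched best by number. In conventional mice they correlated at -0.26 to 0.16, where 1 of 5 did. Between the non-pregnant groups they correlated at -0.21 to 0.31 (1 of 6), and between the pregnant groups at -0.12 to 0.043 (0 of 5). With the replicate block, 0 members were lower with pregnancy in conventional mice, Trib3 having an adjusted p of 0.091. The block called 19 of all genes lower between the non-pregnant groups and 1 higher in the interaction, and gave log2 changes of -0.049 for Sec61g and -0.13 for Kdelr3 in germ-free mice and 0.032 for Sec61g in conventional mice, each of the other sign than without it.

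Other signs that turned belong to small, uncalled changes. Spcs1 in germ-free mice had -0.0090 with median-ratio scaling, -0.041 with no filter, -0.0034 with the covariate, -0.0033 with 2 groups and -0.0093 by DESeq2. With the covariate, Spcs1 had -0.0021 and Dnajb9 0.080 in conventional mice, and with no filter Sec61g had -0.0013 in germ-free mice. Leaving out 1 library gave log2 changes with pregnancy in germ-free mice of -0.12 to 0.068 for Atf4, -0.13 to 0.021 for Herpud1, -0.53 to 0.32 for Kdelr3, -0.11 to 0.26 for Sec61g, -0.074 to 0.082 for Spcs1 and -0.39 to 0.083 for Trib3. In conventional mice it gave -0.15 to 0.21 for Atf4, -0.14 to 0.11 for Dnajb9, -0.37 to 0.32 for Sec61g and -0.075 to 0.19 for Spcs1.

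Leaving out 1 library also gave 810 to 1322 genes higher and 384 to 768 lower with pregnancy in germ-free mice, and 659 to 1134 higher and 377 to 668 lower in conventional mice. It gave 5 to 16 higher and 5 to 14 lower between the non-pregnant groups, 2 to 20 higher and 2 to 11 lower between the pregnant groups, and 0 to 1 in either direction of the interaction. Members called lower numbered 0 to 1 in both pregnancy comparisons, and 0 to 1 member was higher between the pregnant groups.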
